A study of Mus musculus with 14 samples.

Results

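The genes described here code for translation initiation factors and the proteins that regulate them. They were chosen by a list of 46 gene symbols, and all 46 were found once each among the 32285 genes counted in the RNA libraries. The list holds 3 genes of the eIF1 and eIF1A factors, 4 of eIF2 with eIF2A, 5 subunits of eIF2B, 4 eIF2α kinases, 14 genes of eIF3 subunits, 9 of the eIF4 factors, 2 4E-binding proteins (4E-BPs) and 5 of eIF5, eIF5A, eIF5B and eIF6. The list follows the names of the genes, with no threshold on a measured value, and was drawn up with earlier results of these data known.

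White nodules were taken from 7 cKO mice, which carried Eif3e fl/fl and Cγ1Cre on a C57BL/6J background. Cre is made from the Ighg1 locus, so both alleles of the gene for one eIF3 subunit could be deleted in activated B cells. Mice 29, 31, 32 and 34 also carried a Rosa26-YFP reporter. Each nodule gave 1 single-cell RNA library and 1 library of B cell receptors (BCR) or T cell receptors (TCR). Liver nodules came from mouse 27 (BCR, aged 12 mo) and mouse 30 (TCR, aged 14 mo), and spleen nodules from mouse 31 (BCR, aged 13 mo) and mouse 32 (TCR, aged 12 mo). Mouse 29 gave a lung nodule (BCR, aged 12 mo), mouse 33 a thymus nodule (BCR, aged 16 mo) and mouse 34 a sample of lung and thymus (BCR, aged 9 mo). The nodule of mouse 27 was a secondary tumor grown in a Rag2-/- recipient, which makes no T or B cells of its own, and mouse 34 had been reconstituted with a mixture of JHT and cKO bone marrow. Myeloid cells of mouse 27 can come from the recipient, and non-clonal cells of mouse 34 from JHT marrow. In these mice cell class and genotype cannot be told apart. Every comparison here is between cells of the same nodules or between the BCR and TCR mice. Among the mice of 1 receptor kind each site is 1 mouse, so site, age and mouse cannot be told apart there. The floxed gene can still give counted UMIs (unique molecular identifiers, 1 per captured transcript) from parts outside the deletion, so Eif3e counts are not a test of the deletion.

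Initiation starts when eIF2 brings the initiator tRNA to the small ribosomal subunit, with eIF1 and eIF1A guarding the choice of the start codon. The eIF3 complex is the scaffold that holds these factors on the ribosome, and the cap-binding complex of eIF4E, eIF4G and the helicase eIF4A brings in the mRNA. The 4E-BPs sequester eIF4E, and the eIF2α kinases slow the recycling of eIF2 by eIF2B under stress. Of the rest, eIF5, eIF5B and eIF6 act in GTP hydrolysis and in the joining of the ribosomal subunits, while eIF5A helps the ribosome through difficult peptide bonds.

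Clone cells are those whose receptor belongs to the dominant clone of the nodule. They numbered 1782, 323, 3974, 1084 and 1416 in mice 27, 29, 31, 33 and 34 (B clones) and 2107 and 4868 in mice 30 and 32 (T clones). Non-clonal T-like cells, named from T cell markers of their cluster, numbered 394 to 5117 per mouse, and myeloid-like cells (macrophage-like and neutrophil-like clusters) 145 to 3156. B-like cells with another receptor than the clone were few, 32, 41 and 27 in mice 29, 31 and 33, and were under 20 in the other BCR mice, which were left out of that class. A further 1429 to 6618 cells per BCR mouse lay in B-like clusters with no receptor call. They could be clone cells or not, so they were set aside from every test. Clone cells were deeper than the non-clonal T-like cells of the same nodule in all 7 mice, with medians of 1992 to 13763 against 1189 to 3450.5 UMIs per cell. Library totals ran from 19254544 to 122550206 UMIs. Values are therefore given as CPM, the UMIs of a gene after scaling all UMIs of the class in a mouse to 1000000, and again in cells of 2000 to 8000 UMIs. A CPM counts tags and is not divided by transcript length, so it compares 1 gene between classes, not different genes. Summed T cell markers ran from 1363 to 3038 CPM in the T-like class. Summed B cell markers ran from 1732 to 3644 CPM in the B clones, against 64.3 to 249 CPM in the T-like cells of the same mice. In the B clones summed T cell markers ran from 21.5 to 126 CPM. Of the 15554 clone cells 426 lay in clusters of another or no lineage, 319 of them in mouse 32. The T-like class may hold natural killer cells, since some of its clusters also carried genes of those cells. Of 74042 barcodes, 3307 occurred in more than 1 RNA library, and cells were always identified by library and barcode together.

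Of the 4 classes compared in BCR mice, B clones had the highest summed eIF3 transcripts. The 14 eIF3 subunit genes together took 4095, 3945, 3627, 3773 and 3818 CPM in the B clones of mice 27, 29, 31, 33 and 34 and 3129, 1799, 2232, 2701 and 2989 CPM in the non-clonal T-like cells of the same mice. All 5 B clones lay above their own T-like cells, by 0.61 ± 0.32 on the log2 scale (SD, n = 5 mice), and the lowest clone lay above the highest T-like sum. The T clones of mice 30 and 32 held 2316 and 2464 CPM, beside 2493 and 2275 CPM in their T-like cells. The sum was higher in the clone of 1 of the 2 mice and lower in that of the other. Non-clonal B-like cells of mice 29, 31 and 33 held 1931, 2454 and 3410.5 CPM, below the clone in each of the 3 mice (clone minus B-like 0.58 ± 0.44 on the log2 scale, n = 3). B-like cells with no receptor call held 3685, 3371, 3771, 3511 and 3516 CPM in the 5 BCR mice, above the T-like cells in each and below the clone in 4. Myeloid-like cells held the least, with a lowest value of 921, a median of 2021 and a highest value of 2382 CPM over 7 mice, lower than the clone and lower than the T-like cells in all 7. Over the myeloid-like sum, the clone was higher by 0.94 ± 0.47 and the T-like class by 0.51 ± 0.46 (log2, SD, n = 7). In cells of 2000 to 8000 UMIs the sums were 3353 to 3801 CPM in B clones and 1921 to 3229 CPM in T-like cells of the BCR mice, still without overlap. Within that window the B clones stayed deeper, with median UMIs per cell of 6028 to 7128 against 2438 to 3663.5 in these T-like cells. Summed cytosolic ribosomal protein transcripts (86 genes) were higher in the clone than in T-like cells in 4 of 5 BCR mice, by 0.38 ± 0.45 on the log2 scale.

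**Figure D1:**
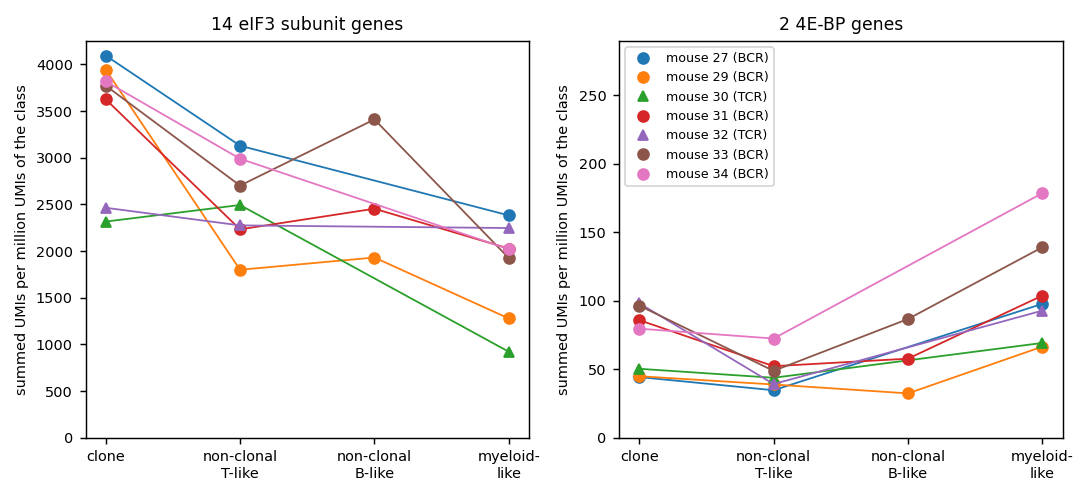
Summed UMIs of the 14 eIF3 subunit genes (left) and of the 2 4E-BP genes (right) as CPM, in clone, non-clonal T-like, non-clonal B-like and myeloid-like cells, with 1 line per mouse (circles BCR, triangles TCR mice). Lines skip the B-like class where a mouse had too few such cells. The 5 B clones sit at 3627 to 4095 for eIF3, above every other class of the same mouse, whereas the 4E-BP sum is highest in myeloid-like cells in 6 of 7 mice.

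The sequence before the annotated starts was read for motifs that members share. RefSeq promoters of GRCm38.p6 (250 bases before to 50 after a start) were held for 38 of the 46 members. In these, and in the promoters of all 27025 genes of the table, 6 motifs were searched on both strands. CACGTG, the E-box bound by MYC and related factors, occurred in 10 of 38 members (26.3%) and 8.09% of all genes. CCGGAAGT and GGAAGTG, cores of ETS family sites that overlap in their shared letters, occurred in 8 and 12 members (21.1% and 31.6%, against 4.31% and 12.5% of all genes). CCAAT was found in 14 members (36.8%, all genes 41.1%), TGATGNAA in 1 (2.63%, all genes 4.51%) and the palindrome made of TCTCG and CGAGA in 0 (all genes 0.525%). These are counts of letters, with no test, and say nothing of binding. The members with an E-box before the start that were called higher in clones in any of the comparisons below were Eif1b, Eif3f, Eif4a1, Eif4g1 and Eif5a. Their sites are shown 5′ to 3′ on the strand of the gene to let the flanks be compared, with the E-box in capitals.
Eif1b (chr9:120492565-120492604, plus strand): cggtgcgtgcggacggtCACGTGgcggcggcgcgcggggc
Eif3f (chr7:108934330-108934369, plus strand): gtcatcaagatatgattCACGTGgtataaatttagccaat
Eif4a1 (chr11:69672590-69672629, minus strand): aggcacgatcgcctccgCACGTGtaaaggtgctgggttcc
Eif4g1 (chr16:20672656-20672695, plus strand): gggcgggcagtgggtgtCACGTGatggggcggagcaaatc
Eif5a (chr11:69921438-69921477, minus strand): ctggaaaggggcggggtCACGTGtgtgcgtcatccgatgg
Eif5a (chr11:69920786-69920825, minus strand, second site): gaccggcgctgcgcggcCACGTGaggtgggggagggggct

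The E-box began 24 bases before the start of Eif1b, 54 before that of Eif4g1, 68 before that of Eif3f and 189 before that of Eif4a1, and both Eif5a sites lie before different annotated starts. In the same build, Eif3e lies on chromosome 15 (43250040 to 43282736), the chromosome that also holds Eif3d, Eif3h, Eif3l and Eif4b.

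The first comparison set B clones beside non-clonal T-like cells of the same nodule. These differ in lineage too, so clonality and lineage cannot be told apart in it. No TCR was read in BCR mice, so their T-like cells are non-clonal only in having no BCR call. Of the 46 members 13 were higher and 1 lower in B clones than in non-clonal T-like cells (5 mice, edgeR quasi-likelihood test with mouse as a block, Benjamini-Hochberg adjusted p under 0.05). Of all 12452 genes tested 12.9% were higher and 15.5% lower. The median log2 fold change of the members was 0.53, against 0.046 over all genes. Among eIF2 and its exchange factor, Eif2s1, the eIF2α subunit, was counted at 321, 462, 267, 298 and 220.4 CPM in the clones of mice 27, 29, 31, 33 and 34 and at 149, 117, 116, 152 and 160.1 CPM in the T-like cells, with no overlap (log2 fold change ± SE 1.19 ± 0.25, adjusted p = 0.0129). Eif2b3, the γ subunit of the exchange factor eIF2B, stood at 73.1, 50.5, 113, 36.6 and 42.2 against 34.7, 12.95, 31.7, 24.5 and 27.99 CPM, also without overlap (log2 1.25 ± 0.29, adjusted p = 0.0181). Eif2a, which codes for an alternative initiator tRNA carrier, Eif2b1 and Eif2b5 rose as well, by 1.12, 0.83 and 0.92, so that 5 of the 9 genes of the eIF2 and eIF2B groups were called. Eif2s2, the eIF2β subunit, did not pass (log2 0.42 ± 0.20, adjusted p = 0.158), nor did any of the 4 eIF2α kinases, among them Eif2ak3 (PERK, 0.25 ± 0.36, adjusted p = 0.635).

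In eIF3, Eif3a (the large core scaffold), Eif3d (which can bind the mRNA cap) and Eif3l passed the test, and the fitted log2 fold changes of all 14 subunit genes were above 0, or of 8 when the summed eIF3 UMIs were taken as the library size. In every comparison that scale centres the subunits by construction. It compares subunits with each other and cannot speak to the level of eIF3 as a whole. Eif3l gave the largest eIF3 difference, at 144, 104, 98.8, 133 and 149.6 CPM in the B clones and 72.6, 23.3, 62.2, 60.7 and 85.1 CPM in the T-like cells. Every clone lay above every T-like value (log2 1.19 ± 0.25, adjusted p = 0.0138). Eif3a was counted at 559, 577, 487, 778 and 387 against 361, 376, 326, 341 and 311 CPM (log2 0.72 ± 0.20, adjusted p = 0.0366) and Eif3d at 209.7, 155, 160.1, 154 and 115 against 95.7, 51.7, 90.4, 93.00 and 112 CPM (log2 0.91 ± 0.24, adjusted p = 0.0302). The targeted subunit, Eif3e, was not called, at 232, 243, 169, 222 and 189 CPM in the clones and 161, 138, 116, 168 and 169.6 CPM in the T-like cells, with ranges that overlapped. The clone was higher in each mouse (log2 0.54 ± 0.18, adjusted p = 0.0575, though DESeq2 called it). The other 10 subunit genes ranged from 0.16 for Eif3j1, a loosely bound subunit, to 1.05 for Eif3b, the second core scaffold, whose adjusted p in edgeR was 0.0501. Eif3j1 and Eif3j2 are near-identical copies, so the split of UMIs between them is uncertain.

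Eif1, which keeps the scanning ribosome from wrong start codons, was the only member that fell, from 1153, 1216, 1994, 1032 and 970.3 CPM in the T-like cells to 560.2, 634, 792, 592 and 722 CPM in the B clones, with no overlap (log2 -0.86 ± 0.20, adjusted p = 0.0208). The other 2 genes of its group rose, Eif1ax (eIF1A) by 0.65 (adjusted p = 0.0344) and Eif1b by 0.76 (adjusted p = 0.0281). Of the eIF4 group, Eif4g1, the scaffold of the cap-binding complex and one of the genes whose E-box is shown above, rose from 119, 123, 110.3, 131 and 129.8 to 231, 297, 195, 176 and 184 CPM (log2 0.85 ± 0.19, adjusted p = 0.0168). Eif4b, a cofactor of the helicase, rose by 0.73 (adjusted p = 0.0411), and Eif4g2, a relative of the scaffold that lacks the binding site for eIF4E, did not pass (log2 0.39 ± 0.16, adjusted p = 0.112). The repressor gene Eif4ebp1 gave the largest rise of all members, from 7.43, 8.06, 12.3, 10.4 and 11.5 CPM in T-like cells to 14.96, 19.5, 21.97, 50.1 and 21.7 CPM in clones (log2 1.34 ± 0.29, adjusted p = 0.0154). Eif5a was higher in every clone than in the T-like cells of the same mouse but did not pass (log2 0.96 ± 0.35, adjusted p = 0.0776).

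Since most eIF3 genes were higher in B clones, the other members were also read on the scale of eIF3 itself. With the summed eIF3 UMIs as the library size, the median shift of the members was -0.66 on the log2 scale. There 0 members were higher and 2 (Eif1 and Eif4a2) lower in B clones, beside 491 of 12452 genes higher and 3884 lower. Of the 32 members outside eIF3 those with a positive log2 fold change went from 28 to 10. In cells of 2000 to 8000 UMIs 9 members were higher and 1 lower, beside 960 and 1224 of 9079 genes. Eif3l, Eif3d, Eif2s1 and Eif2b3 were among the members that were higher, and the lower member was Eif1. There Eif4ebp1, Eif3a, Eif1ax, Eif2b1 and Eif4b were no longer called, and Eif3b was. With classes taken from marker UMIs instead of clusters, Eif1ax, Eif2b1 and Eif4b were not called. In place of 14 calls there were 6 without mouse 27, 7 without mouse 31 and 8 without mouse 33. Whichever mouse was left out, 5 members (Eif2a, Eif2b3, Eif2s1, Eif3l and Eif4ebp1) were called. Summed transcripts of 10 proliferation genes were higher in the clone than in T-like cells in 5 of 5 mice (607 to 1807 against 124 to 915 CPM), and their part in these differences was not tested.

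**Figure D2:**
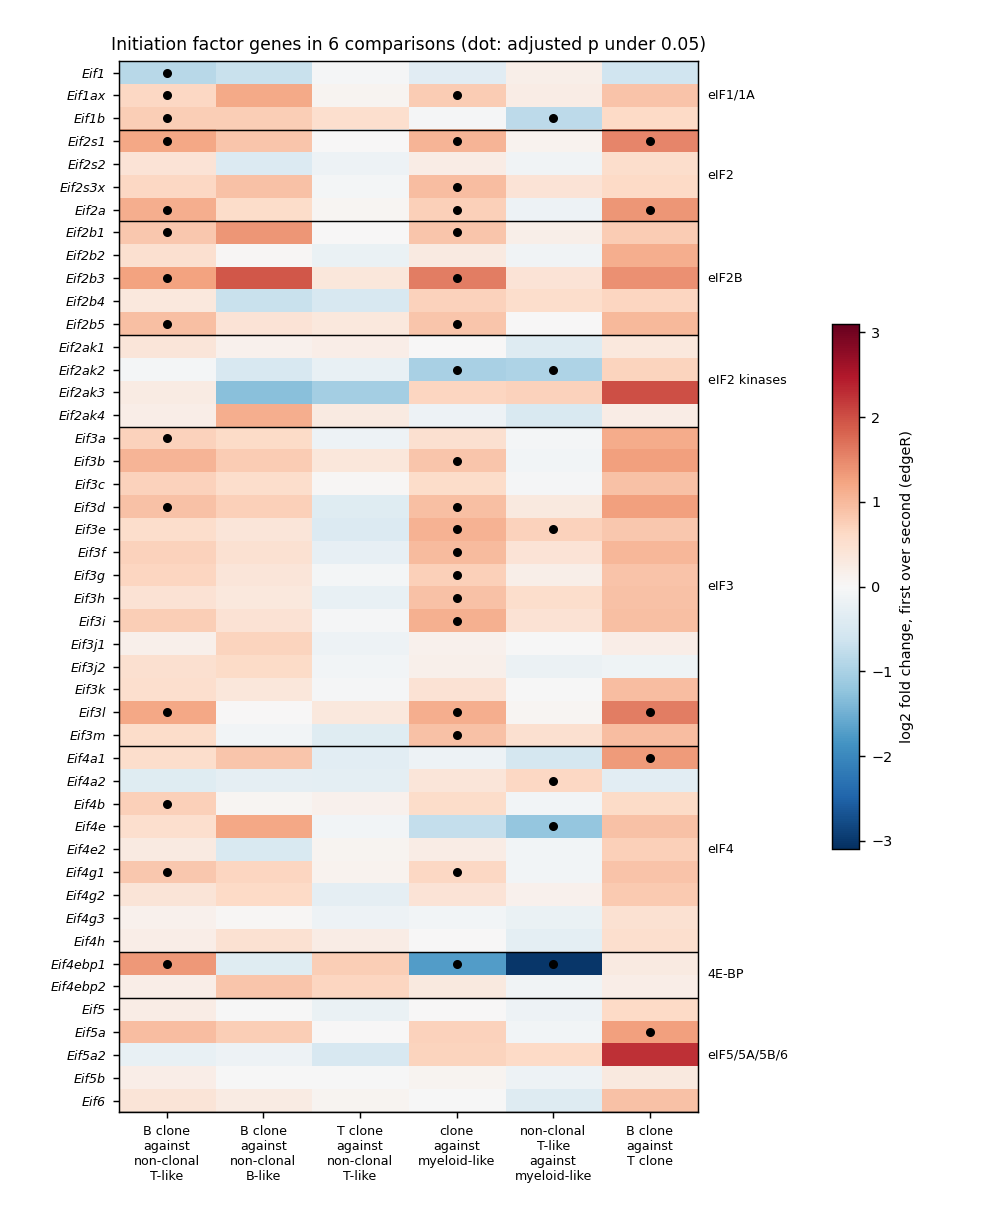
Log2 fold change (colour, first class over second, edgeR) of the 46 members, in rows by factor group, in the 6 comparisons, in columns, with dots at an adjusted p under 0.05. The B clone against T-like, clone against myeloid-like and T-like against myeloid-like columns hold 14, 19 and 6 dots, and the columns of clones against cells of their own lineage hold 0.

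Against cells of their own lineage no member was called in either kind of clone. B clones were set beside non-clonal B-like cells in mice 29, 31 and 33, where 0 of 46 members were higher and 0 lower (edgeR and DESeq2 alike, 11 members at an unadjusted p under 0.05). Of all genes tested, 0% of 9336 were higher and 0.075% lower. The fitted log2 fold changes of 13 of 14 eIF3 genes were above 0, or of 8 on the scale of summed eIF3 UMIs. That scale moved the members by a median of -0.43, and without it the eIF3 median was 0.46 (all genes 0.10). Eif3l, the eIF3 gene that stood out against T-like cells, differed little here, at 104, 98.8 and 133 CPM in the clones and 80.9, 115 and 107 CPM in B-like cells (log2 0.012 ± 0.31, adjusted p = 0.997). Eif4ebp1 was lower in the clone than in B-like cells in 3 of 3 mice and did not pass (log2 -0.37 ± 0.42, adjusted p = 0.806). It stood at 21.6, 28.9 and 57.8 CPM in B-like cells beside 19.5, 21.97 and 50.1 CPM in the clones. These B-like values rest on 4, 4 and 14 UMIs in mice 29, 31 and 33. The interval for counting error of each holds the clone value of the same mouse, so the direction is uncertain. Eif2b3 had the largest difference, 50.5, 113 and 36.6 against 5.39, 43.3 and 8.26 CPM (log2 1.91 ± 0.47, adjusted p = 0.252), but the B-like values rest on 9 UMIs in all. Without the filter on low counts it was the 1 member called. Eif3e stood at 243, 169 and 222 CPM in the clones and 119, 108 and 227 CPM in B-like cells (log2 0.38 ± 0.32, adjusted p = 0.716). With a median SE of 0.35 over members, differences of the size seen against T-like cells could be missed.

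T clones were compared with non-clonal T-like cells in 2 mice, with 0 of 46 members higher or lower (DESeq2 also 0, and 1 member at an unadjusted p under 0.05). Of 11550 genes 0% were higher and 0% lower. A fit of 2 mice that called no gene at all could hardly call a member. Its 0 therefore does not show that T clones match T-like cells. Here 11 of the 14 eIF3 genes had log2 fold changes under 0, with a median of -0.11. On the scale of summed eIF3 UMIs, which moved the members by a median of 0.15, 5 did. Eif3e was counted at 146 and 142 CPM in the T clones of mice 30 and 32 and at 183 and 164 CPM in their T-like cells (log2 -0.42 ± 0.22, adjusted p = 0.670). Eif2ak3 (PERK), the eIF2α kinase of the endoplasmic reticulum, had the largest difference, 24.2 and 24.8 against 34.6 and 57.5 CPM (log2 -1.05 ± 0.32, adjusted p = 0.452). Whether the clone-minus-T-like difference differs between BCR and TCR mice was tested with an interaction term. In BCR mice that difference also lies between B and T lineage, so clonality and lineage cannot be told apart in this term. It called 256 genes (2.19% of 11670 tested), 0 of them members (9 members at an unadjusted p under 0.05 in edgeR, the one tool run). The member with the smallest p was Eif3e, whose clone-minus-T-like difference was 0.95 ± 0.29 log2 units higher in BCR mice (edgeR, adjusted p = 0.165).

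Most eIF3 genes were higher in clones than in myeloid-like cells. On the scale of summed eIF3 UMIs, which centres the subunits by construction, 8 of 14 were above 0 and 0 were called. Over 7 mice 17 members were higher and 2 lower in clones (edgeR), where 17.1% of 12130 genes were higher and 16.4% lower. Among the members that were higher were 9 of the 14 eIF3 genes. Eif3e was counted with lowest, median and highest values of 142, 189 and 243 CPM in clones and 37.99, 87.9 and 116 CPM in myeloid-like cells, with no overlap (log2 1.07 ± 0.21, adjusted p = 0.00688). Eif3f and Eif3h, which with Eif3e, Eif3m and others form the octamer of the complex, were also separate in all mice. Eif3f stood at 378 to 823 against 93.7 to 362 CPM (log2 0.98 ± 0.21, adjusted p = 0.00908). Eif3h stood at 256 to 511 against 89.8 to 232 CPM (log2 0.90 ± 0.19, adjusted p = 0.00859). Eif3l (1.12 ± 0.27, adjusted p = 0.0150) and Eif3i (1.10 ± 0.22, adjusted p = 0.00660) had the largest eIF3 log2 fold changes. Eif3b, Eif3d, Eif3g and Eif3m rose by 0.74 to 0.94. The 5 that did not pass were Eif3a (0.49), Eif3c (0.58), Eif3k (0.45), Eif3j1 (0.14) and Eif3j2 (0.15).

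Outside eIF3, Eif2b3 (log2 1.60 ± 0.33, adjusted p = 0.00822), Eif2s1 (1.06 ± 0.24, adjusted p = 0.0116) and Eif2s3x, the eIF2γ subunit (0.96 ± 0.20, adjusted p = 0.00884), rose. Of the eIF2 and eIF2B groups 6 of 9 genes were called. Eif4ebp1 was the member furthest below, with lowest, median and highest values of 14.96, 21.8 and 50.1 CPM in clones and 49.3, 63.3 and 124 CPM in myeloid-like cells (log2 -1.74 ± 0.25, adjusted p = 0.00159), lower in the clone in each mouse. Eif2ak2 (PKR), the kinase that answers double-stranded RNA, was the other that fell (log2 -1.01 ± 0.29, adjusted p = 0.0286). Scaled to summed eIF3 UMIs, which moved the members by a median of -0.74, 1 member (Eif2b3) was higher and 11 were lower. Of all 12130 genes, 314 were higher and 3855 lower there. On that scale, of the members outside eIF3 6 of 32 were above 0 instead of 23. In cells of 2000 to 8000 UMIs 12 were higher and 3 lower, and with classes taken from marker UMIs instead of clusters 7 and 1. Of all genes 1052 of 9276 were higher and 1496 lower in the window, and 1015 of 12623 higher and 1659 lower with marker classes. The depth window lost Eif1ax, Eif2a, Eif2b3, Eif3b and Eif4g1 and gained Eif4e, which was lower. Marker classes lost Eif3b, Eif3d and Eif3g of eIF3, Eif2a, Eif2s1, Eif2s3x, Eif2b1 and Eif2b5 of the eIF2 and eIF2B groups, and Eif1ax, Eif2ak2 and Eif4g1, while 6 eIF3 genes (Eif3e, Eif3f, Eif3h, Eif3i, Eif3l and Eif3m) were called. In place of 19 calls there were 10 without mouse 27, 10 without mouse 29, 9 without mouse 33 and 12 without mouse 34. Whichever of the 7 mice was left out, 8 members (Eif2b3, Eif2s1, Eif2s3x, Eif3e, Eif3f, Eif3h, Eif3i and Eif4ebp1) were called. Myeloid-like cells were shallower than clone cells in 6 of 7 mice and deeper in mouse 32 (medians of 9014.5 and 3805 UMIs). The myeloid-like class was not the same in every nodule, with summed neutrophil markers from 1917 to 79392 CPM and summed macrophage markers from 1488 to 21265 CPM, and the part of this makeup in the differences was not tested.

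Between non-clonal T-like and myeloid-like cells, 2 of 46 members were higher and 4 lower in the T-like class (7 mice, edgeR). Of all genes tested, 17.9% of 10256 were higher and 20.1% lower. Eif3e was the 1 eIF3 gene called in this fit, higher at 116 to 183 CPM (median 164) against the myeloid-like values above, the highest of which lay just under the lowest T-like value (log2 0.71 ± 0.23, adjusted p = 0.0335). In cells of 2000 to 8000 UMIs Eif3e, Eif3h and Eif3m were called higher, with DESeq2 Eif3e and Eif3h, and with classes by marker UMIs 0 eIF3 genes (Eif3e at adjusted p = 0.0794 in edgeR). The median fitted log2 fold change of the 14 eIF3 genes was 0.13. Eif4a2, a helicase paralog, also rose (0.65 ± 0.19, adjusted p = 0.0225). Eif4ebp1 was lower (log2 -3.02 ± 0.28, adjusted p = 1.4e-05), at 7.34 to 24.4 CPM in T-like cells, below every myeloid-like value. Its target Eif4e, the cap-binding protein, was lower as well (log2 -1.19 ± 0.27, adjusted p = 0.00563), as were Eif2ak2 (-0.96 ± 0.22, adjusted p = 0.00630) and Eif1b (-0.82 ± 0.17, adjusted p = 0.00413). Scaled to summed eIF3 UMIs (a median shift of -0.22 in the members), 0 were higher and 7 lower, those 4 included. Of 10256 genes, 945 were higher and 2215 lower on that scale. The 4 that were lower were called whichever mouse was left out, and the 2 that were higher were not. Without mouse 29 or mouse 33 both were lost and 4 calls were left. Eif3e was also lost without mouse 34, and Eif4a2 without mouse 31, without mouse 32 and in the depth window (edgeR adjusted p = 0.0502).

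Between the clones themselves, 5 members were higher in the 5 B clones than in the 2 T clones and 0 lower (edgeR, no block), where 2.05% of 15191 genes were higher and 4.69% lower. Eif3l stood at 144, 104, 98.8, 133 and 149.6 CPM in B clones and 44.1 and 57.6 CPM in T clones (log2 1.58 ± 0.31, adjusted p = 0.0307). Eif2s1 (1.51 ± 0.34, adjusted p = 0.0430), Eif2a (1.38 ± 0.25, adjusted p = 0.0257), Eif4a1, the main helicase (1.31 ± 0.30, adjusted p = 0.0444), and Eif5a (1.27 ± 0.29, adjusted p = 0.0463) were the others. The fitted log2 fold changes of 13 of 14 eIF3 genes were above 0, or of 5 on the scale of summed eIF3 UMIs, with a median of 0.94. That scale moved the members by a median of -0.96 and left 0 members higher and 2 (Eif1 and Eif4a2) lower. Of all 15191 genes it left 184 higher and 3705 lower. With the B clone of mouse 27 left out 0 members were called, and with that of mouse 29, 31, 33 or 34 left out 4, 2, 2 and 1. Leaving out the T clone of mouse 30 gave 0 calls and that of mouse 32 also 0, in fits that take their spread from the B clones alone and assume that the 1 T clone left varies like them. In cells of 2000 to 8000 UMIs 2 (Eif2a and Eif3l) were higher, and with clone cells of clusters of their own lineage only 9, Eif3b, Eif3d and Eif3m among them. Higher among all genes were 283 of 11704 and 782 of 14730. The clones also differed in depth, with median UMIs per cell of 1992 and 3805 in T clones and 9367 to 13763 in B clones. In the window the medians were 2710 and 3645.5 in T clones and 6028 to 7128 in B clones. At the sites with both kinds of clone, Eif3l was higher in the B clone, at 144 against 44.1 CPM in liver and 98.8 against 57.6 CPM in spleen, with 1 mouse of each kind per site. The other 3 B clones came from sites with no T clone, and the part of site in these calls was not tested.

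**Figure D3:**
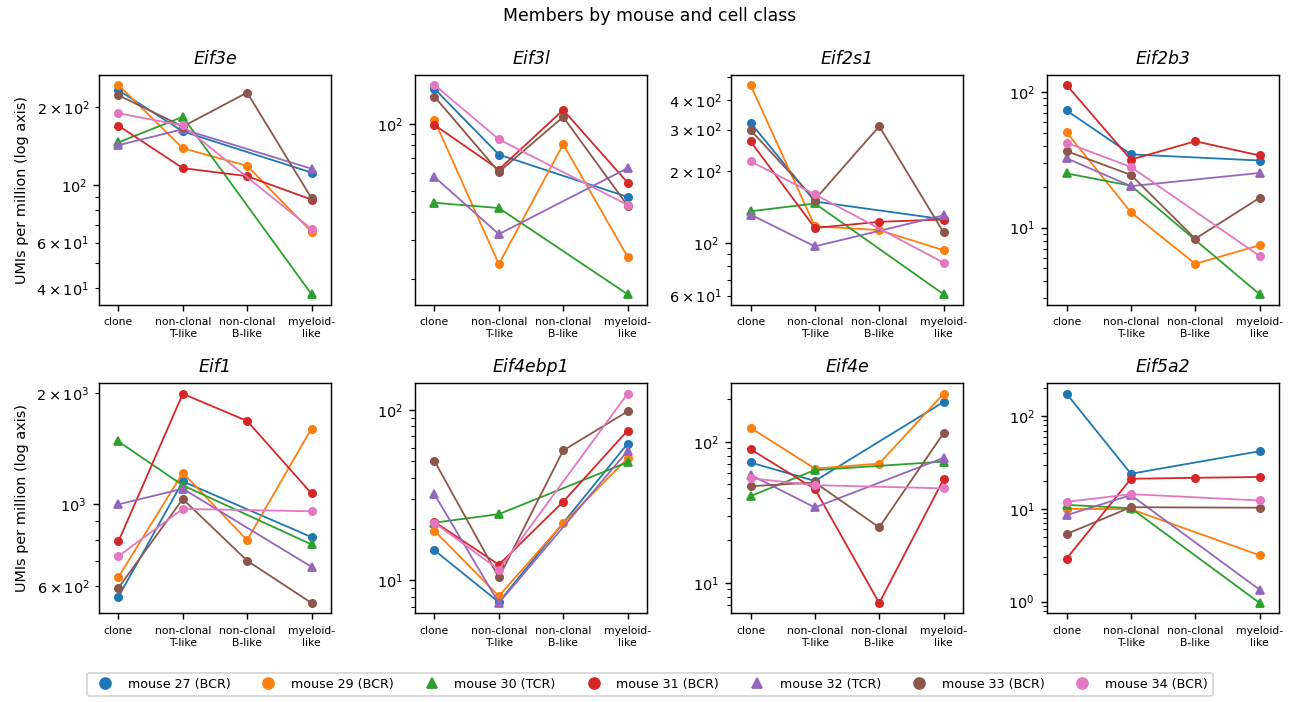
CPM (log axis) of 8 members in clone, non-clonal T-like, non-clonal B-like and myeloid-like cells, with 1 line per mouse (circles BCR, triangles TCR mice; values of 0 and classes with too few cells are left out). Eif3e, Eif3l, Eif2s1 and Eif2b3 are lower in myeloid-like than in clone cells in most mice. Eif4ebp1 is higher in myeloid-like than in T-like cells in 7 of 7 mice, and Eif5a2 in the clone of mouse 27 stands at 175, away from the other clones at 2.90 to 11.9.

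The balance of subunits within eIF3 was described as the share of each gene in the summed UMIs of the 14 subunit genes, which is free of the depth of a class. Eif3f took 17.1% ± 2.37 (SD, n = 7 mice) of eIF3 UMIs in clones, 16.8% ± 1.64 in T-like and 14.6% ± 2.33 in myeloid-like cells. Eif3h, another subunit of the octamer, took 11.00% ± 1.64, 12.3% ± 1.38 and 9.82% ± 0.809, and Eif3g, which binds eIF3 to the scanning ribosome, 2.21% ± 0.449, 2.15% ± 0.312 and 2.19% ± 0.233. Over the 7 clones the shares of Eif3a and Eif3c had the widest ranges, from 10.1% in mouse 34 to 20.6% in mouse 33 and from 9.62% in mouse 33 to 19.5% in mouse 31. The mouse with the highest Eif3a share had the lowest Eif3c share. Counting error was small beside this, as the Eif3a share of the clone of mouse 33 had a 95% Clopper-Pearson interval of 20.3 to 20.95%. The Eif3e share was 5.63% ± 0.607 in clones, 6.36% ± 1.06 in T-like, 5.74% ± 1.18 in B-like (n = 3), 5.89% ± 0.672 in B-like cells with no receptor call (n = 5) and 4.49% ± 0.634 in myeloid-like cells.

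Within mice, the Eif3e share was lower in the clone than in T-like cells in 6 of 7 mice (mean log2 ratio -0.17 ± 0.16, SD) and higher than in myeloid-like cells in 7 of 7 (0.33 ± 0.19). Eif3b took a larger share of the clone than of T-like cells in 7 of 7 mice (0.43 ± 0.47) and Eif3l in 6 of 7 (0.52 ± 0.35). Eif3h took a smaller one in 7 of 7 (-0.17 ± 0.17) and Eif3j1 in 6 of 7 (-0.36 ± 0.31). Against non-clonal B-like cells the Eif3l share was not raised (-0.43 ± 0.52, n = 3), and that of Eif3m was lower in 3 of 3 mice (-0.53 ± 0.25). Against myeloid-like cells Eif3i was higher in 7 of 7 mice (0.36 ± 0.22) and Eif3k lower in 7 of 7 (-0.29 ± 0.17). Eif3j1 was also lower there (-0.61 ± 0.43, 6 of 7 mice), with its highest myeloid-like share, 13.98%, in mouse 30. For the remaining subunits the mean ratio of clone to T-like cells was within -0.12 (Eif3m) to 0.11 (Eif3d), below the SD between mice in each case. Shares of 1 sum are tied to each other, so these ratios are a description and were not tested.

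**Figure D4:**
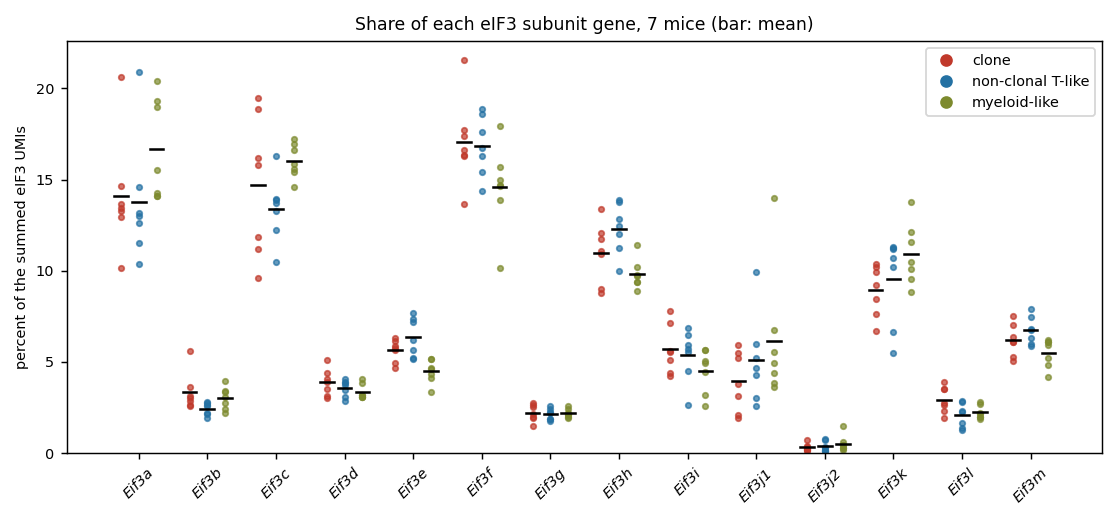
Share of each eIF3 subunit gene in the summed UMIs of the 14 subunit genes (percent, linear axis), in clone, non-clonal T-like and myeloid-like cells, with 1 point per mouse and a bar at the mean of 7 mice. The clusters of points of a subunit largely coincide between classes, with Eif3e means at 5.63, 6.36 and 4.49%, and Eif3a and Eif3c spread most between clones.

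The share of cells in which a member was seen was compared as deposited and at equal depth. As deposited, 27.01 to 90.1% of clone cells and 15.9 to 47.2% of T-like cells of a mouse held an Eif3e UMI, at the depths given above. With each cell thinned to 1000 UMIs, leaving out 127 clone, 2316 T-like, 8 B-like and 869 myeloid-like cells that were shallower, the share was 16.99% ± 3.71 in clones and 14.3% ± 2.24 in T-like cells (SD, n = 7 mice), with overlapping ranges. It was 16.4% ± 3.71 in B-like cells (n = 3) and 6.67% ± 2.84 in myeloid-like cells. Eif3f, at the same depth, was seen in 42.8% ± 9.13, 33.1% ± 6.46 and 20.1% ± 8.34 of clone, T-like and myeloid-like cells. The corresponding shares for Eif3l were 9.32% ± 3.96, 4.25% ± 1.27 and 3.54% ± 1.70. Unthinned, Eif3l was seen in 9.97 to 76.9% of clone cells and 3.09 to 20.2% of T-like cells. Eif1 was seen in more T-like (68.1% ± 6.56) than clone cells (54.1% ± 11.8) at equal depth although unthinned shares ran up to 91.98% and 99.3%. Eif4ebp1 was seen in 2.12% ± 1.12, 0.891% ± 0.287 and 7.28% ± 3.67 of clone, T-like and myeloid-like cells. RNA released from broken cells adds UMIs to other droplets, and no cell type that lacks these genes was at hand to measure it.

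Within the myeloid-like cells, macrophage-like and neutrophil-like clusters differed in several members. Eif1 was higher in neutrophil-like than macrophage-like cells in 6 of 6 mice, at 1402, 2366, 868, 2569, 677 and 2377 against 783, 891, 516, 1013, 669 and 683 CPM in mice 27, 29, 30, 31, 32 and 34, though by little in mouse 32. Eif5, the GTPase activator of eIF2, was higher in neutrophil-like cells in 6 of 6 mice, without overlap (401, 548, 487, 664, 383 and 543 against 277, 328, 325, 232, 280.4 and 228 CPM). Eif4a1, Eif4e, Eif3f, Eif3h, Eif3i, Eif3k, Eif5b and Eif2ak4 were higher in macrophage-like cells in 6 of 6 mice. Eif4e had means of 164 ± 108 (n = 7) and 46.00 ± 14.9 CPM (n = 6). These directions were not tested, and the neutrophil-like class held only 26, 39 and 41 cells in mice 27, 31 and 34. The share of all genes with the same direction in 6 of 6 mice is not given here. The lists therefore do not set the members apart from other genes. Summed eIF3 CPM ran from 1073 to 2412 in macrophage-like (n = 7), 715 to 2228 in neutrophil-like (n = 6), 1779 to 2894 in endothelial-like (n = 5) and 1702 to 2714 in fibroblast-like cells (n = 3). In erythroid-like cells the sums ran from 352 to 3832 CPM (n = 5). There Eif2ak1 (HRI), the kinase that senses heme, was counted at 69.5, 220.3, 78.5, 43.9 and 7.82 CPM in mice 29, 31, 32, 33 and 34. These values were above the clone in 4 of 5 mice, and above T-like and macrophage-like cells in 3 of 5 each. The erythroid-like class held 3766 cells in mouse 32 but only 26 to 85 in the other mice. It totalled 68341 UMIs in mouse 33 and 127866 in mouse 34, so the Eif2ak1 values there rest on very few UMIs.

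Other genes of translation were read from a fixed list of 32 elongation, termination, cap and signalling genes, all of which were tested in each comparison. In B clones against T-like cells 4 of 32 were higher and 2 lower, where 12.9% and 15.5% of all genes were, a share near or below the background. The 4 higher were Abce1, a ribosome recycling factor (log2 fold change 1.11, adjusted p = 0.00942), the elongation factor subunit Eef1g (0.93, adjusted p = 0.0256), the S6 kinase gene Rps6kb1 (0.65, adjusted p = 0.0371) and the RNA-binding Larp4 (0.61, adjusted p = 0.0324). The 2 lower were Pdcd4, an inhibitor of eIF4A (-1.95, adjusted p = 0.00922), and Ppp1r15a, which directs the dephosphorylation of eIF2α (-1.95, adjusted p = 0.0183). In clones against myeloid-like cells 9 were higher, 4 of them elongation factor genes (Eef1g, Eef1d, Eef1b2 and Eef2), and 1, the eIF4E kinase gene Mknk1, was lower (-1.55, adjusted p = 0.00398), beside 17.1% higher and 16.4% lower of all genes. In T-like against myeloid-like cells 6 were higher and 4 lower, again near or below the 17.9% and 20.1% of all genes, with Pdcd4 the highest (2.21, adjusted p = 2.8e-05) and Mknk1 among the lower (-1.56, adjusted p = 0.00024). The lineage-matched comparisons called 0 of the list in edgeR, with 1 of its genes at an unadjusted p under 0.05 for B clones and 3 for T clones (DESeq2 was not read for this list). B clones against T clones gave 3 higher (Larp4, Rps6kb1 and Eef1g) and 0 lower, beside 2.05% and 4.69% of all genes. The median log2 fold change of the list was 0.29 in B clones against T-like cells and 0.35 in clones against myeloid-like cells, beside 0.53 and 0.53 of the 46 members.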

How the data were processed

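The authors deposited raw UMI counts for each RNA library as a sparse matrix of genes and called cells. The submitters' processing notes name the builds GRCm38 and mm10, and the aligner is not given in the sources used here. The labels name a 5′ kit and the methods of the study a 3′ kit for RNA libraries, so which transcript end was counted is unsettled. The receptor files list contigs that the authors assembled with SeekSoulTools. The members, lists and tests were chosen with earlier results of these data known. Cells were kept at 201 or more UMIs, 101 or more genes and at most 10% mitochondrial UMIs, the limits of the study (75503 of 77442 cells). They were clustered in scanpy 1.11.5 (Leiden, resolution 1, 2000 variable genes with the members left out, 30 components, 34 clusters), and clusters were named by at least 3 fixed markers. Plasma cell genes were not held against a B-like name, a change made after 1 cluster had stayed unnamed. No doublet caller was used, and 534 cells with UMIs of both B and T genes were left out in an alternative. The dominant clone of a nodule took in every called cell that shared its commonest heavy (beta) or light (alpha) chain, and in TCR mice the non-clonal T-like class took cells with another TCR. UMI counts were summed per mouse and class of at least 20 cells and tested with edgeR 4.0.16 (TMM, filterByExpr, quasi-likelihood, mouse as block within nodules) in R 4.3.3, and DESeq2 1.42.0 was an alternative. The pairs come from the same nodule, though the genotype within a pair may differ in mice 27 and 34. Deviations of the pairs from the class means correlated in every pair (0.17 to 0.49 across genes). On simulated counts for B clones against T-like cells (200 of 12452 genes changed), 5% of changes of log2 1 and 62% of log2 2 were recovered. In the data 12.9% of genes were called higher and 15.5% lower. The simulation changed far fewer genes, so its shares do not give the power of the real fit. Thinning used the exact chance that a cell keeps a UMI. Intervals at 95% cover counting error only. Each mouse gave 1 sample. With mouse as a block, p-values measure how the difference between classes varies from mouse to mouse. For B against T clones, fitted without a block, they measure the spread between mice. Named were all eIF3 genes, the 5 called members with the largest change in each direction and the most counted gene of each group, others being named after their values were seen.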

Additional observations from a re-analysis of the deposited data

Results flagged for a closer look

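Among the 46 members in the 5 B clones, 4 had 1 mouse far from the other 4, by Dixon's test of the gap against the range, which chance passes in about 1 of 20 groups. Eif2b5, the catalytic subunit of eIF2B, was counted at 130.05 CPM in mouse 29, where the next clone stood at 87.1 CPM. Eif3j2 stood at 16.4 CPM in mouse 29 and at most at 8.58 CPM in the others, with an uncertain split of UMIs from its near-identical copy Eif3j1. Eif4ebp1 was counted at 50.1 CPM in mouse 33 and at most 21.97 CPM elsewhere. Eif5a2, a paralog of Eif5a, had the widest gap, with 175 CPM in mouse 27, the secondary tumor, against 11.9 CPM or less. T-like cells of mouse 27 held 23.9 CPM and myeloid-like cells 41.9 CPM of Eif5a2. In this nodule Eif5a was counted at 843 CPM in the clone, beside 714, 513, 521 and 678 CPM in the clones of mice 29, 31, 33 and 34.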

How the results depend on the processing

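Members called numbered 14 in B clones against T-like cells, 19 in clones against myeloid-like cells, 6 in T-like against myeloid-like cells and 5 in B against T clones in edgeR, and 0 in both lineage-matched comparisons. DESeq2 called more of all genes, in B against T clones 1513 of 15191 higher and 1525 lower. Its counts of members were 23, 21, 10 and 19, and 0 in the others. With summed eIF3 UMIs as the library size they were 2, 12, 7 and 2, all lower but 1, and Eif3g in clones against myeloid-like cells turned from 0.74 to -0.00027, as a scale set by eIF3 must centre its subunits. Without the filter on low counts B against T clones gave 3 and B clones against B-like cells 1. In cells of 2000 to 8000 UMIs B against T clones gave 2, and B clones against B-like cells could not be fitted. Classes by marker UMIs gave 8 in clones against myeloid-like cells. Clone cells of clusters of their own lineage only, a setting chosen after seeing the data, gave 9 in B against T clones. The cause of these shifts was not tested. Leaving out 1 mouse gave 6 to 11 calls in B clones against T-like cells, 9 to 23 calls in clones against myeloid-like cells, 4 to 8 calls in T-like against myeloid-like cells and 0 to 4 in B against T clones, and 0 in B clones against B-like cells. T clones against T-like cells could not be fitted with 1 mouse left. Without the mouse as a replicate block the counts were 12, 17, 6 and, lineage-matched, 0 and 0, so the pairing by nodule moved no count by over 1.5 times. The largest clonotype as the clone, cells with both B and T UMIs left out, and median-of-ratios factors moved no count by over 1.5 times either. Over all alternatives 1471 single-gene values were computed, of which 1329 kept their call, 107 lost and 34 gained a call and 1 reversed. A reversal was counted only for a gene called in either setting, so changes of direction in uncalled genes are among the 1329. The Eif3i share ratio of clone over myeloid-like cells was 0.644 in the depth window (log2, 0.36 in all cells), and thinning to 2000 UMIs raised Eif3e detection to 30.9%, 26.98% and 13.6% of clone, T-like and myeloid-like cells. Depth limits the B-like class most, with 27 to 41 cells per mouse.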
